A study of Mus musculus with 72 samples.

Results

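Hearts of mice given 16 cGy of silicon ions were compared directly with hearts of mice given 13 cGy of titanium ions, a dose step at which both groups held the same number of arrays of each processing batch, as the steps of 4 against 3 and 32 against 26 cGy also did. These were 10 of the 72 hearts of the series, 5 in each group, chosen by their labels alone. All animals were female CB6F1/Hsd mice, a hybrid strain, aged 100 to 120 days when they were received. Each received a single whole-body exposure, either to silicon at 260 MeV per nucleon with a linear energy transfer (LET, the energy deposited along the track) of about 70 keV/µm (Si-IR), or to titanium at 1000 MeV per nucleon with an LET of about 100 keV/µm (Ti-IR). Hearts were taken 16 months later and their RNA was hybridised to Clariom S Mouse arrays. No allele or agent other than radiation was given to either group, and each ion had sham animals that were held in the same kind of plastic holder without irradiation. Ion, energy and LET changed together, and each ion had its own set of mice with its own sham group. These cannot be told apart, and the doses still differed by 3 cGy. The mice came from an archive of animals without tumours, and no source used here gives the hour of harvest.

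Heavy ions leave dense tracks of ionisation, so that a cell that is crossed receives clustered DNA damage while neighbouring cells receive little. The adult heart is mostly contractile muscle by RNA content, with endothelial cells, fibroblasts, pericytes and macrophages between the muscle fibres, and its muscle cells hardly divide. It also keeps a circadian clock, in which ARNTL (BMAL1) with CLOCK or NPAS2 switches on genes for period and cryptochrome proteins and CIART, and these proteins then hold ARNTL back. Since whole hearts were measured, fewer cells of a type and less RNA per cell cannot be told apart in any value below.

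Expression values are log2 signals after quantile normalization over all 72 arrays, so that equal differences are equal folds. The ventricular sarcomere list, 17 genes of the contractile apparatus, averaged 11.32 to 11.54 in the Si-IR hearts and 11.41 to 11.49 in the Ti-IR hearts, among the highest levels of any list. Both groups had 3 arrays in processing batch 1 and 2 in batch 2, so that the batch term of the model drops out of their difference and changes only its error. Before batch entered a model, batch explained 83.9% of the first principal component of all 72 arrays, and that component carried 18.4% of the variance. Background was judged in each array against the median signal of its negative control probe sets, and 68.0% to 77.3% of genes were above it in the 10 arrays. In batch 1 this share was 68.0% to 68.5% in the Si-IR arrays and 70.2% to 74.0% in the Ti-IR arrays. In batch 2 it was 77.0% to 77.3% after Si-IR and 74.6% to 74.8% after Ti-IR. The groups thus differed in signal over background within each batch, in opposite directions. The part of this in the calls was not tested.

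Among the 10 hearts 3 stood apart in genes of other tissues or chambers, and values without them are given beside the results that they move most. The first was Si-IR replicate 1, which held RNA of genes that are used by developing T cells and their stroma in the thymus. Dntt, the template-free DNA polymerase of lymphocyte receptor assembly, was at 7.57 there and at 2.23 to 3.37 in the other Si-IR hearts, while Ti-IR hearts lay between 2.43 and 3.14. Prss16, a thymus protease, was at 8.20 in this heart against 1.91 to 3.27 in the rest of its group. A list of 13 measured thymus genes, put together after these values had been seen, averaged 7.24 in this heart, 3.57 to 4.23 in the other Si-IR hearts and 3.65 to 3.74 in the Ti-IR hearts. The 4.23 was in Si-IR replicate 3, and it too lay above the other 62 hearts of the series, which reached 3.86. Fits without replicate 1 still hold that heart. Of these 13 genes 12 had their highest value of all 72 hearts in Si-IR replicate 1. The cell cycle list, 18 measured genes of dividing cells, averaged 6.45 in the same heart and 4.74 to 5.05 in the other 9. In 13 of its 18 genes this heart was the highest of the series.

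The second heart was Ti-IR replicate 1, where genes of the intestinal lining were high. Alpi, the intestinal alkaline phosphatase, was at 7.33 there and at 4.00 to 4.46 in the other Ti-IR hearts, and the Si-IR hearts lay between 3.80 and 4.66. Guca2b, a gut peptide hormone, was at 7.08 in this heart against 4.45 to 4.79 in the rest of the group. The 14 intestinal genes, also listed after the values were seen, averaged 5.996 in Ti-IR replicate 1 and 3.99 to 4.26 in the other 9 hearts, and 11 of the 14 had their highest value of the series there. The third was Si-IR replicate 4, which was low in genes of the atria. Myl7, the atrial light chain of myosin, was at 4.16 in this heart, and at 10.17 to 10.93 in the other 9. Sln, the atrial inhibitor of the calcium pump, was at 5.82 there and at 10.31 to 11.35 elsewhere. The atrial list averaged 7.32 in this heart and 9.12 to 9.81 in the others. Among the other 62 hearts of the series it ran from 7.09 to 10.44, so that a level this low also occurred elsewhere. Fat genes varied as well: Ucp1, the uncoupling protein of brown fat, was at 11.17 and 10.25 in Si-IR replicates 1 and 2, at 7.12, 2.97 and 3.40 in replicates 3 to 5, and between 2.62 and 8.50 in the Ti-IR hearts.

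**Figure D1:**
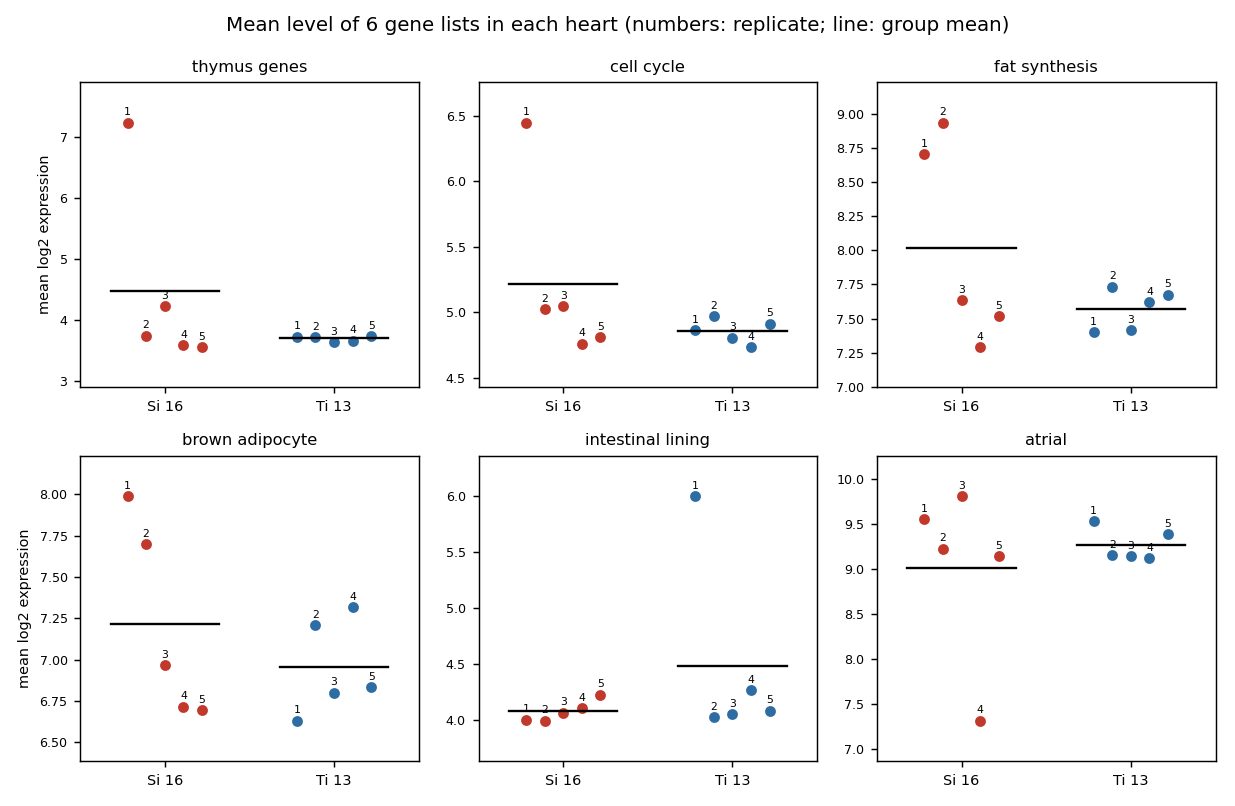
Mean log2 expression of 6 gene lists (vertical axes) in the 5 Si-IR hearts (red) and 5 Ti-IR hearts (blue), 1 point per heart with its replicate number, and a line at each group mean. Si-IR replicate 1 lies alone at 7.24 for thymus genes and 6.45 for cell cycle genes, Ti-IR replicate 1 alone at 5.996 for intestinal genes, and Si-IR replicate 4 alone at 7.32 for atrial genes.

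The question of the comparison is whether hearts given similar low doses of these ions differ in gene expression long after exposure. In the model over all 72 arrays, with 15 groups and batch, 67 of 19505 genes (0.344%) differed at an adjusted p under 0.25, the threshold used in the study. Of these 31 were higher after Si-IR (0.159% of genes) and 36 were higher after Ti-IR (0.185%). At an adjusted p under 0.05 the count was 0 in limma, with 1736 genes (8.90%) at an unadjusted p under 0.05 (906 of them, 4.64%, higher after Si-IR and 830, 4.26%, higher after Ti-IR), and the lowest adjusted p was 0.10. Of the 67 calls 33 sat at the edge of the threshold, with an adjusted p that rounds to 0.25. The differences were small: the median size over the called genes was 0.49, and 1 gene, Lcn2, differed by more than 1 log2 unit. The 5 values of 1 group lay wholly above the 5 of the other in 26 of the 67, beside 152 of all 19505 genes (0.779%). The difference had the same sign in both batches for all 67. Since the 67 were chosen by their differences in these same hearts, both counts follow in part from that choice. They describe the calls and are no separate support for them.

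The count of calls depended on single hearts, among them the 3 described above. Without Si-IR replicate 1 there were 0 calls (1444 genes at an unadjusted p under 0.05, lowest adjusted p 0.31). Without Ti-IR replicate 1 there were also 0 calls (1292 genes at an unadjusted p under 0.05, lowest adjusted p 0.47). Leaving out Si-IR replicate 2, 3, 4 or 5 gave 141, 211, 619 or 33 calls. Leaving out Ti-IR replicate 2, 3, 4 or 5 gave 124, 61, 33 or 21. Each of the 67 genes kept its sign and an unadjusted p under 0.05 in all 10 of these fits. These fits share all but 1 array with the one that chose the genes, so that this was largely set beforehand. In limma fits of batch 1 alone and batch 2 alone, 66 and 28 of the 67 were at that level. A fit of the 10 arrays alone, in which the spread comes from these 2 groups only, gave 0 calls at a lowest adjusted p of 0.72, with 1264 genes at an unadjusted p under 0.05.

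**Figure D2:**
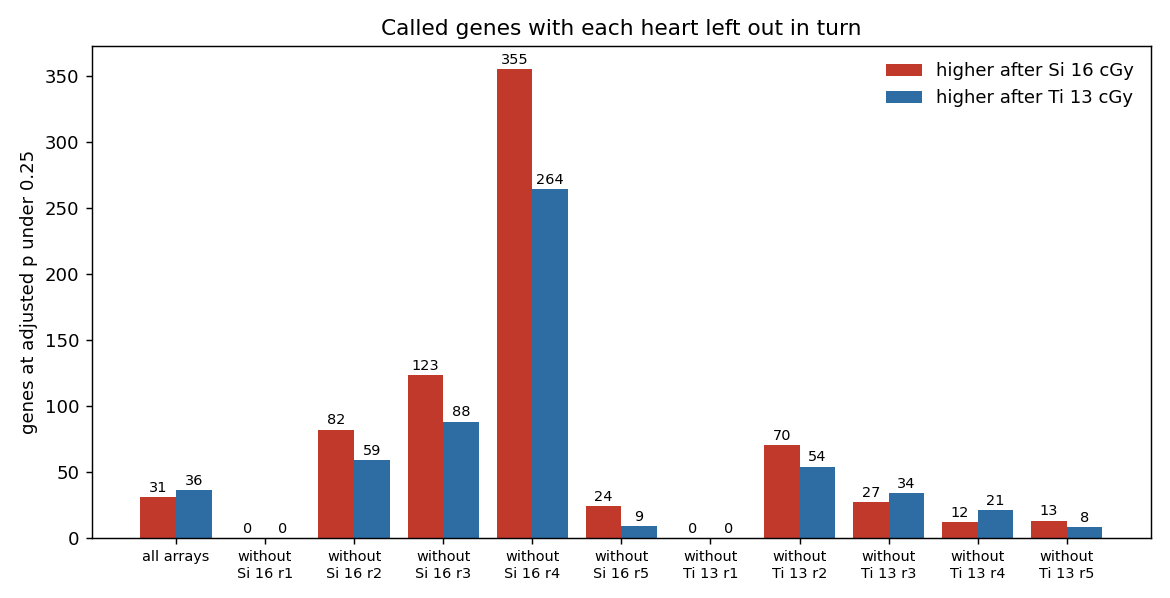
Number of genes at an adjusted p under 0.25 (vertical axis, from 0) with all arrays and with each of the 10 hearts left out in turn, for genes higher after Si-IR (red) and higher after Ti-IR (blue). The bars are at 0 without either replicate 1 heart and reach 355 and 264 without Si-IR replicate 4.

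The largest difference among the called genes was in Lcn2, lipocalin 2, a secreted iron-scavenging protein of the acute phase response, which was higher after Ti-IR. Its levels were 5.47, 4.66, 5.39, 5.58 and 5.85 in Si-IR replicates 1 to 5, and 7.38, 5.86, 7.11, 6.17 and 6.73 in Ti-IR replicates 1 to 5. The lowest Ti-IR heart lay just above the highest Si-IR heart, and the groups did not overlap. The difference (Si-IR minus Ti-IR) was -1.26 (SE 0.30, adjusted p = 0.10 in limma), a 2.39-fold higher level after Ti-IR, and it was -1.59 within batch 1 and -0.77 within batch 2. It was -1.30 without Si-IR replicate 1 and -1.05 without Ti-IR replicate 1. Against its own sham group Lcn2 differed by 0.62 after Ti-IR (adjusted p = 0.61) and by -0.31 after Si-IR (adjusted p = 0.84), neither of which passed.

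A further pair of genes with strong signal separated the groups without overlap. Ptgds, the prostaglandin D synthase, was at 9.96, 10.23, 10.32, 10.27 and 10.57 after Si-IR and at 11.20, 10.73, 11.14, 11.15 and 10.80 after Ti-IR, a difference of -0.74 (SE 0.20, adjusted p of 0.25 after rounding). Fhl1, a LIM-domain protein of the sarcomere that rises in strained heart muscle, was at 9.42, 9.59, 9.59, 9.61 and 9.48 after Si-IR. In the Ti-IR hearts it was at 10.14, 9.96, 10.31, 9.79 and 10.12. The Si-IR hearts were close to each other and each was below each Ti-IR heart, with a difference of -0.53 (SE 0.12, adjusted p = 0.10, 1.44-fold).

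Ccm2l and Tie1, both known from endothelial cells, were called higher after Ti-IR. Ccm2l, a relative of the cerebral cavernous malformation gene Ccm2 that acts in endothelium, averaged 4.52 ± 0.34 (SD, n = 5) after Si-IR and 5.31 ± 0.41 after Ti-IR, a difference of -0.79 (SE 0.18, adjusted p = 0.10). The groups overlapped, since Ti-IR replicate 5 at 4.78 lay below the highest Si-IR heart at 4.88. Tie1, an endothelial receptor tyrosine kinase, was at 6.62 to 7.80 after Si-IR and 7.43 to 8.12 after Ti-IR, and differed by -0.45 (SE 0.11, adjusted p = 0.10). Tie1 was the 1 member of the 16 measured endothelial genes that was called. The median difference of that list was -0.14 beside -0.002 over all genes, and 4 of its genes, Pecam1, Tie1, Emcn and Meox2, were lower after Si-IR at an unadjusted p under 0.05, as were 4.26% of all genes. Without Si-IR replicate 1 the median was -0.08 and 2 genes were at that level.

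The other genes that the naming rule takes among those higher after Ti-IR differed by -0.65 to -0.48. They were Sh3bp4, an adaptor of receptor endocytosis (-0.65), Sult1a1, a sulfotransferase of small phenols (-0.63), Polr2l, a subunit shared by RNA polymerases (-0.61), Insyn2a, a protein of inhibitory synapses (-0.56), Masp1, a protease of the lectin pathway of complement (-0.54), and Cdsn, a protein of cornified skin (-0.54). Srgn, the granule proteoglycan of blood cells (-0.53), Idua, a lysosomal enzyme that degrades heparan and dermatan sulfate (-0.51), Smco1 (-0.50), Tmem144 (-0.49) and Gabra4, a subunit of the GABA receptor (-0.48), completed them. Srgn, Cdsn, Masp1 and Tmem144 separated the groups without overlap. In Sult1a1 the Si-IR hearts lay between 6.06 and 6.61 and the Ti-IR hearts between 6.43 and 7.31.

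**Figure D3:**
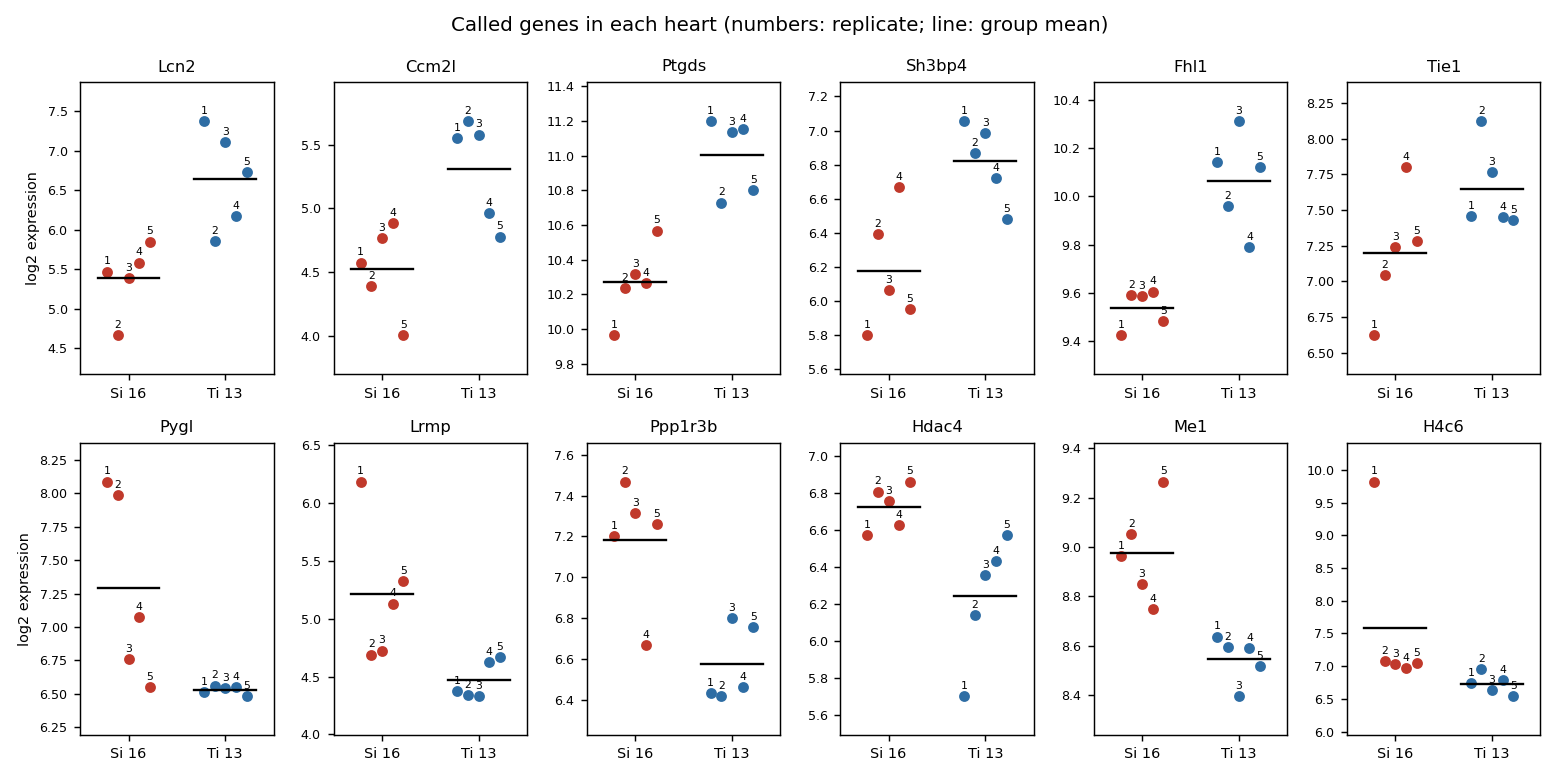
Log2 expression (vertical axes) of 12 called genes in the 5 Si-IR hearts (red) and 5 Ti-IR hearts (blue), 1 point per heart with its replicate number and a line at each group mean. Lcn2, Ptgds and Fhl1 separate the groups, while in H4c6 the difference of the means comes mostly from Si-IR replicate 1 at 9.82.

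Pygl, Ppp1r3b and Me1 were among the genes called higher after Si-IR. The 16 measured genes of glucose uptake and glycolysis gave 0 calls, beside 0.344% of all genes. Pygl, the liver form of glycogen phosphorylase, was at 8.09, 7.98, 6.76, 7.07 and 6.55 after Si-IR and at 6.51, 6.56, 6.54, 6.55 and 6.48 after Ti-IR. Replicates 1 and 2 of Si-IR were far above all Ti-IR hearts and replicate 5 was within their range, so that the difference of 0.76 (SE 0.18, adjusted p = 0.10) became 0.30 without these 2 hearts. Ppp1r3b, which brings protein phosphatase 1 to glycogen, was at 7.20, 7.47, 7.31, 6.67 and 7.26 after Si-IR and at 6.44, 6.42, 6.80, 6.46 and 6.76 after Ti-IR. In 4 of the 5 Si-IR hearts it was above every Ti-IR heart, and the difference of 0.61 (SE 0.15, adjusted p = 0.10) was 0.51 without Si-IR replicates 1 and 2. Me1, the cytosolic malic enzyme that supplies NADPH for fatty acid synthesis, was at 8.96, 9.05, 8.85, 8.75 and 9.27 after Si-IR. In the Ti-IR hearts it was at 8.64, 8.59, 8.40, 8.59 and 8.52, below each Si-IR heart, and the difference of 0.43 (SE 0.10, adjusted p = 0.10) was 0.45 without Si-IR replicates 1 and 2.

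Me1 was the 1 called gene of the 10 measured genes of fat synthesis, whose median difference was 0.53. The hearts that were high in fat cell genes were also high in several of its other members. Fasn, the fatty acid synthase, was at 9.58 and 9.95 in Si-IR replicates 1 and 2 and at 6.47 to 7.52 in replicates 3 to 5, beside 6.91 to 7.42 in the Ti-IR hearts (difference 0.91, SE 0.55, adjusted p = 0.67). Acly, which makes cytosolic acetyl-CoA, was at 8.58 and 9.02 in the same 2 hearts and at 7.28 to 7.64 in the others of the group. Without Si-IR replicates 1 and 2 the median of the list was -0.06. In the sham pair 4 of the 10 were called higher in Si sham hearts (2.93% of all genes), with a median difference of 0.34. The white adipocyte list averaged 8.65 and 7.76 in these 2 hearts, 6.18 to 6.80 in the other Si-IR hearts and 6.36 to 7.41 in the Ti-IR hearts. The part of fat tissue in the list's median was not tested.

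Hdac4, a histone deacetylase that restrains muscle growth programmes, was higher after Si-IR without overlap, although the nearest hearts of the groups were almost level. It was at 6.57, 6.81, 6.76, 6.63 and 6.86 after Si-IR and at 5.70, 6.14, 6.36, 6.43 and 6.57 after Ti-IR. The difference was 0.49 (SE 0.12, adjusted p = 0.10, 1.40-fold), 0.48 within batch 1 and 0.50 within batch 2, and it was 0.35 without Ti-IR replicate 1, the lowest heart. Mtch1, a protein of the outer mitochondrial membrane, averaged 8.14 ± 0.33 after Si-IR and 7.68 ± 0.12 after Ti-IR, with Si-IR replicate 4 alone at 7.57 inside the Ti-IR range.

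In H4c6, Rrm2, Lrmp and Gpr65, all called higher after Si-IR, Si-IR replicate 1 was the highest heart. The 13 measured genes of T, B and plasma cells gave 0 calls, beside 0.344% of all genes. Their median difference was 0.07, and -0.12 without this heart. H4c6, a replication-dependent histone H4 gene, was at 9.82 in that heart and at 6.98 to 7.08 in the other 4, beside 6.54 to 6.96 after Ti-IR. Its difference of 0.86 (SE 0.24, adjusted p of 0.25 after rounding) was 0.31 without this heart. Rrm2, the ribonucleotide reductase subunit made in S phase, was at 6.98 there and at 5.40 to 5.73 in the others of the group, beside 4.65 to 5.70 after Ti-IR (difference 0.67, SE 0.19, and 0.38 without this heart). Lrmp, a membrane protein of lymphoid cells, was at 6.18, 4.69, 4.72, 5.13 and 5.32 after Si-IR and at 4.33 to 4.67 after Ti-IR. Each Si-IR heart was above each Ti-IR heart, and the difference of 0.74 (SE 0.17, adjusted p = 0.10) was 0.52 without Si-IR replicate 1. Gpr65, a proton-sensing receptor of immune cells, was at 6.08 and 5.79 in Si-IR replicates 1 and 3, at 4.79 to 5.02 in the others and at 4.40 to 4.94 after Ti-IR (difference 0.60, and 0.41 without Si-IR replicate 1). Si-IR replicate 1 was the highest of its group in 17 of the 31 genes called higher after Si-IR, and in 22.5% of all genes with a positive difference.

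The remaining named genes higher after Si-IR differed by 0.45 to 0.59. They were Tceanc2 (0.59), Eya2, a phosphatase and transcriptional coactivator (0.58, and 0.44 without Si-IR replicate 1), Gpr132, a receptor of leukocytes (0.57), Fcf1, a factor of ribosomal RNA processing (0.56, and 0.63 without Si-IR replicate 4), Atp2b3, a calcium pump of the plasma membrane (0.53), Zfp281, a zinc finger transcription factor (0.45), and Pan3, a subunit of a poly(A)-shortening complex (0.45, and 0.30 without Ti-IR replicate 1). Tceanc2 and Gpr132 separated the groups without overlap. Of all 67 called genes, 11 did not exceed background in any array of at least 1 group, and no fold between the groups is given for them. They include the lymphocyte genes P2ry10 and Sh2d1a, in which Si-IR replicate 1, at 4.74 and 6.34, was again the highest heart of its group.

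The cell cycle list had a median difference of 0.37, with Rrm2 called and 8 of its 18 genes higher after Si-IR at an unadjusted p under 0.05, beside 4.64% of all genes. Without Si-IR replicate 1 the median was 0.10 and 1 gene was at that level. Mki67, a marker of cycling cells, was at 8.44 in that heart and between 4.44 and 5.90 in the other 9. Thymus genes moved with this list (median difference 0.82, and 0.12 without the heart), and their part in the result was not tested.

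Of 14 measured genes of cardiac wall stress 1 was called, Fhl1. The list had a median difference of -0.21 beside -0.002 over all genes, and 6 of its genes were lower after Si-IR at an unadjusted p under 0.05 (4.26% of all genes). Their mean level was 9.33 to 9.62 in the Si-IR hearts and 9.60 to 10.03 in the Ti-IR hearts. Nppb, which encodes the B-type natriuretic peptide, was at 9.11, 9.71, 10.07, 8.87 and 8.33 after Si-IR and at 10.06, 9.72, 10.28, 9.90 and 9.82 after Ti-IR (difference -0.74, SE 0.24, adjusted p = 0.32). Acta1, the skeletal actin of the fetal heart programme, averaged 10.20 ± 0.20 after Si-IR and 10.81 ± 0.46 after Ti-IR, with an adjusted p of 0.31. The median was -0.18 without Si-IR replicate 1 and -0.23 without Ti-IR replicate 1. In the sham pair 6 of these 14 genes were called lower in Si sham than in Ti sham hearts (3.42% of all genes), with a median difference of -0.20. The difference between the 2 pairs had a median of 0.04 and 0 calls in the list.

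Of the 14 glucocorticoid-induced genes Lcn2 was the 1 called, 7 differed in each direction and the median difference was -0.01. Angptl4, an inhibitor of lipoprotein lipase, and Pdk4, a kinase that restrains pyruvate oxidation, had the most positive values, 0.53 (adjusted p = 0.50) and 0.55 (adjusted p = 0.64). Mt2, a metal-binding metallothionein of the same list, lay wholly lower after Si-IR, at 7.88 to 8.64 against 8.91 to 9.40 after Ti-IR (difference -0.75, SE 0.22), and missed the threshold at an adjusted p of 0.26. Its neighbour gene Mt1 differed by -0.13 (95% interval -0.33 to 0.06).

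No clock gene passed the test between the ions, in which 0.344% of all genes were called. None of the 4 measured activators and none of the 13 measured repressors and outputs was among them. With so few genes called anywhere, this count does not set the clock apart from other genes. Arntl was at 5.94, 5.88, 5.89, 6.93 and 5.37 after Si-IR and at 6.03, 5.90, 6.31, 4.72 and 5.58 after Ti-IR, a difference of 0.29 (95% interval -0.27 to 0.86). Ciart, the repressor of CLOCK and ARNTL, was at 6.40, 6.65, 6.16, 5.79 and 6.77 after Si-IR and at 6.13, 6.80, 7.08, 6.92 and 7.04 after Ti-IR, a difference of -0.44 (95% interval -1.10 to 0.22). Dbp, a strongly rhythmic output, differed by -0.11 with an interval of -0.82 to 0.61, the widest of the clock genes named here. The values of both groups overlapped in Arntl and Ciart, and each of these intervals includes differences in both directions.

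In the sham hearts of the same 2 ions clock genes were among the calls. Of the same lists, 3 activators were called lower and 8 repressors and outputs were called higher in Si sham hearts than in Ti sham hearts, and over all genes this pair had 1239 calls (6.35%), 572 higher (2.93%) and 667 lower (3.42%) in Si sham hearts. Arntl averaged 5.40 ± 0.52 (SD, n = 4) in Si sham and 7.03 ± 0.43 (SD, n = 5) in Ti sham hearts, a difference of -1.75 (SE 0.31, adjusted p = 0.0024 in limma). Ciart averaged 7.15 ± 0.25 and 5.19 ± 0.88, a difference of 1.94 (SE 0.36, adjusted p = 0.0033). The 4 Si sham arrays were all in batch 2, while Ti sham had 3 in batch 1 and 2 in batch 2, so that this pair leans on the batch term.

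The test of the difference between the irradiated pair and the sham pair called 17 genes (0.0872% of 19505), 9 of them (0.0461%) with a higher Si-minus-Ti difference in the irradiated pair. At an adjusted p under 0.05 there were 3 (0.0154%), Arntl, Ciart and Chrna5, of which the last was below background in all 10 arrays, so that no size is read from it. The irradiated pair exceeded the sham pair by 2.04 for Arntl (SE 0.42, adjusted p = 0.048), and fell below it by -2.38 for Ciart (SE 0.49, adjusted p = 0.048), by -1.45 for the period gene Per3 (SE 0.36, adjusted p = 0.18) and by -0.68 for the cryptochrome gene Cry2 (SE 0.17, adjusted p = 0.23). Arntl and Ciart were called (adjusted p under 0.25) in all 19 fits that left out 1 heart of the 4 groups. Their highest adjusted p among these limma fits was 0.23, so that neither stayed under 0.05 in all of them. Per3 was called in 12 of the fits and Cry2 in 8. Within batch 2 alone the values were 1.88, -2.44, -1.56 and -0.91, and none of the 4 passed there (adjusted p of 0.98 to 1). Adamts4, a matrix protease, was also called, but was above background in 1 of the 10 arrays. Other genes called in this test were Gpr65 (1.02, adjusted p = 0.057), Adam19, a membrane-bound metalloprotease (0.76, adjusted p = 0.089), and Gstt2, a glutathione transferase (-1.26, adjusted p = 0.10).

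**Figure D4:**
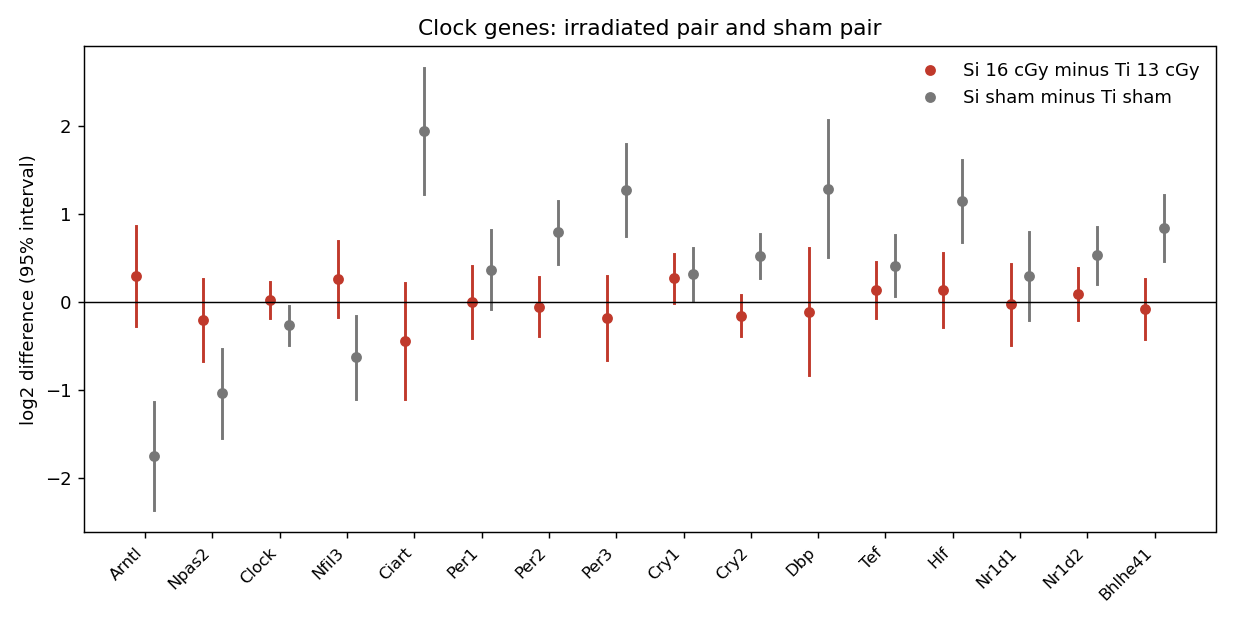
Log2 difference (vertical axis, with 95% intervals) of 16 clock genes between Si-IR 16 cGy and Ti-IR 13 cGy hearts (red) and between the Si sham and Ti sham hearts (grey). The red points lie between -0.44 and 0.29 and all their intervals include 0, while the grey points run from -1.75 for Arntl to 1.94 for Ciart.

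The start-site regions of 3 of these genes are shown because they hold matches to known types of clock element and the difference between the pairs was positive for Arntl and negative for Ciart and Per3. The windows are from RefSeq on build GRCm38.p6, each of 300 bases around a start site, and a script marked matches on both strands in capitals. In Ciart (chr3:95882179-95882478, minus strand) the capitals mark the E-box CACGTG, the site of ARNTL with CLOCK, in Per3 (chr4:151044616-151044915, minus strand) the D-box TTANGTAA, the site of DBP and its relatives, and in Arntl (chr7:113207261-113207560, plus strand) GTAGGTNA, a form of the element of ROR and REV-ERB receptors.
Ciart: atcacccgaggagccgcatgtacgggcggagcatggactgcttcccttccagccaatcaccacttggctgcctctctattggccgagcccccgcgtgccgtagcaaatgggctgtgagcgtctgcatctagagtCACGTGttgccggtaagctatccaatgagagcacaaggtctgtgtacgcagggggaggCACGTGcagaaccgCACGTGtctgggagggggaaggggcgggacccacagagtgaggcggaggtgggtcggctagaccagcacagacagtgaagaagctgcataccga
Per3: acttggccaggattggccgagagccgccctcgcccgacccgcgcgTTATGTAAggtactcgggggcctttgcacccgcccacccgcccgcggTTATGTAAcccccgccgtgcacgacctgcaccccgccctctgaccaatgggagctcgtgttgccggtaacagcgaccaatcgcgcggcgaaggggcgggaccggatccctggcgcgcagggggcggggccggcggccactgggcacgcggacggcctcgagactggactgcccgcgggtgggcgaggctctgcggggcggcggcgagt
Arntl: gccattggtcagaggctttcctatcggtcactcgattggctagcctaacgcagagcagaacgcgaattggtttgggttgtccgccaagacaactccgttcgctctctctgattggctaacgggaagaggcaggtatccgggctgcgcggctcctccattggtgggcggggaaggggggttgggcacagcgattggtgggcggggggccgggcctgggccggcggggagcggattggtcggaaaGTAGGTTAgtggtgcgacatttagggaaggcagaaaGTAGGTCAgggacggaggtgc
The Ciart window held 3 E-boxes, the Per3 window 2 D-boxes and the Arntl window 2 receptor elements, none of them overlapping another motif. The reference holds a second, overlapping Arntl window (chr7:113207215-113207514) with 1 receptor element, and the one printed was chosen because it holds both matches. Among all 32851 reference windows, 7.15% held at least 1 CACGTG, 2.32% at least 1 TTANGTAA and 2.14% at least 1 GTAGGTNA. The Cry2 window held 0 of each. These matches are descriptions of the letters, not of binding.

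The study singled out 12 genes, on hearts that include these, as common at some dose to silicon, titanium and caesium gamma radiation. They gave 0 calls between Si-IR 16 cGy and Ti-IR 13 cGy, where 0.344% of all genes were called. Their median difference was -0.06. In the sham pair, where 6.35% of all genes were called, all 12 were called, 5 higher and 7 lower in Si sham hearts. The study chose its genes by comparing irradiated with control hearts, so that the sham hearts took part in selecting the 12. This count, and the one from the test between the pairs below, are therefore no separate support. Cdkn1a, the p21 inhibitor of cyclin-dependent kinases, was at 5.98, 6.12, 6.75, 7.48 and 6.43 after Si-IR and at 7.06, 7.64, 7.55, 6.49 and 6.88 after Ti-IR. The groups overlapped and the difference was -0.57 (SE 0.28, adjusted p = 0.56). The other 11 differed by -0.18 to 0.32, among them Spon2, a secreted matrix protein (0.01), Adam19 (0.04), Wee1, a kinase that holds back mitosis (0.07), Rcan1, an inhibitor of calcineurin (-0.16), Slc41a3, a magnesium transporter (-0.12), Errfi1, an inhibitor of EGF receptor signalling (0.32), and Bhlhe41, Per2, Per3, Cry2 and Arntl of the clock. In the test of the difference between the pairs 4 of the 12 were called beside 0.0872% of all genes, Arntl and Adam19 upward and Per3 and Cry2 downward.

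The other dose pairs of the same ions, which share no hearts with this pair, gave 0 calls (0%) for Si-IR 4 cGy against Ti-IR 3 cGy, 214 (1.10%) for 8 against 6.5 cGy and 27 (0.138%) for 32 against 26 cGy. Of the 67 genes called here 4 were also called at 8 against 6.5 cGy, all in the same direction, which is 5.97% of the calls here and 1.87% of the calls there. They were Lcn2, Fhl1, Elp5, a subunit of the Elongator complex of tRNA modification, and Fcf1. Lcn2 was lower after Si-IR by -0.76 at 4 against 3 cGy (adjusted p of 1 after rounding), by -1.52 at 8 against 6.5 cGy (SE 0.32, adjusted p = 0.013) and by -0.64 at 32 against 26 cGy (adjusted p = 0.88). The sham pair differed by -0.34 in Lcn2 (adjusted p = 0.70). Fhl1 differed by -0.42, -0.45 and 0.00 in those 3 dose pairs, of which the second was called (adjusted p = 0.18). None of the 27 calls at 32 against 26 cGy was among the 67.

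Some of the calls were shared with the unirradiated hearts. Of the 67 genes 15 were also called between Si sham and Ti sham hearts, which is 22.4% of the calls here and 1.21% of the calls there, beside 6.35% of all genes called in that pair. The direction was the same in 13 of the 15. Tmem144 differed by -0.49 between the irradiated groups and by -0.47 between the sham groups, Idua by -0.51 and -0.43, Gabra4 by -0.48 and -0.39, and Me1 by 0.43 and 0.27. Lrmp, Fcf1 and Hdac4 were also among the 13, while Gpr65 and Chrna5 were the 2 with opposite directions. Called or not, 53 of the 67 (79.1%) had the sign of the sham pair, as had 59.2% of all genes. For the dose pairs of 4 against 3, 8 against 6.5 and 32 against 26 cGy the same sign was found in 47, 56 and 44 of the 67. These are 70.2%, 83.6% and 65.7% of the calls, beside 54.7%, 57.5% and 51.3% of all genes.

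Hdac4 was the single gene whose difference in this pair departed from the mean of the other 3 dose pairs (0.00513% of 19505 genes). It was 0.49 higher after Si-IR here, and -0.16, -0.31 and -0.24 in the pairs of 4 against 3, 8 against 6.5 and 32 against 26 cGy. The difference from their mean was 0.72 (SE 0.14, adjusted p = 0.027). Over the fits that left out 1 of the 10 hearts it ran from 0.59 to 0.81, and it was not called without Ti-IR replicate 1 (adjusted p = 0.56). In the sham pair Hdac4 was 0.35 higher in Si sham hearts (SE 0.13, adjusted p = 0.20), and the difference between the 2 pairs, 0.13 (95% interval -0.21 to 0.48), did not pass (adjusted p = 0.94).

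No gene was called among 19 measured p53 targets (median difference -0.02), 22 DNA repair genes (0.05), 12 senescence genes (-0.05), 28 respiratory chain genes (0.05), 19 collagens and matrix genes (-0.09), 13 fibroblast genes (-0.13), 20 interferon-stimulated genes (0.05), 17 macrophage genes (0.00) or 12 heat shock genes (-0.03). Over all genes 0.344% were called, so that 0 calls do not set these lists apart from other genes. The atrial list, with Si-IR replicate 4 far below the rest, had a median of -0.13 and 0 calls, and a median of -0.006 without that heart. The largest difference of any gene, called or not, was 1.88 in Alb, the albumin of liver, which varied so much between hearts that its SE was 1.45 (adjusted p = 0.76). The hepatocyte list averaged 5.16 to 6.84 in the Si-IR hearts and 5.01 to 6.07 in the Ti-IR hearts.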

How the data were processed

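Total heart RNA was measured on 72 Clariom S Mouse arrays in 2 processing batches named in the labels. The authors made the deposited log2 values with RMA (background correction, log2 transformation and quantile normalization; version not given in the sources used here). Array medians still ran from 4.17 to 6.35, so the 22206 transcript-cluster probe sets were quantile normalized again; 19572 had 1 gene symbol, 0 had several and 2634 had none in the platform annotation, and 19505 genes remained after keeping the brightest probe set of each, all of them found in the RefSeq table. The 6546 negative control probe sets served only to describe background, in the values as deposited. For a gene at or below their median on every array of a group no fold was given.

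Groups and replicate numbers came from the labels. The main model was fitted with limma 3.58.1 in R 4.3.3 on all 72 arrays (15 groups plus batch, 56 residual degrees of freedom, moderated statistics, Benjamini-Hochberg adjustment over all genes), with calls at an adjusted p under 0.25. It assumes that these groups vary like the others. All p-values are from limma. Those given for fewer arrays come from separate fits of the arrays named. The labels do not say whether replicates share a cage or day beyond the batch, and 5 hearts a group limit the precision. Named genes were the 15 largest calls in each direction that lay above the negative control median in at least 4 of 5 arrays of the higher group, called members of 46 gene lists, and the study's 12 common genes; Chrna5, P2ry10, Sh2d1a, Elp5, Alb, Mt2, Mt1 and the other genes of single hearts were named after their values were seen. Members and lists were chosen with earlier results of these data known, and the thymus and intestinal lists after the values were seen. Some listed genes were not analysed here. Scripts were tested on simulated data. Alternatives covered the arrays in the fit, batch handling, scaling, moderation, removal of genes below a log2 signal of 5 in more than 6 of the 10 arrays, a replicate block and leaving out each heart.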

Additional observations from a re-analysis of the deposited data

Results flagged for a closer look

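Single hearts lay far from the other 4 of their group in 16 of 124 comparisons of a gene or list within a group (the gap to the nearest heart was tested with Dixon's ratio, which chance passes in about 1 in 20). That rate does not apply to the thymus and intestinal lists, put together after these hearts were seen to be high, and without these lists the count was 14 of 120. The rest include genes called in these same hearts, and lists that overlap with them, such as Rrm2 and the cell cycle list. They are neither unselected nor independent, so that the rate cannot be set against this count either. Si-IR replicate 1 was the highest heart of its group for the means of the thymus list (7.24, next 4.23), the cell cycle list (6.45, next 5.05) and the T, B and plasma cell list (5.80, next 4.35), and for H4c6 (9.82, next 7.08), Rrm2 (6.98, next 5.73) and Eya2 (5.60, next 4.95). Ti-IR replicate 1 was the highest for the intestinal list (5.996, next 4.26) and the lowest for Pan3 (5.31, next 5.87). Si-IR replicate 4 was the lowest for the atrial list (7.32, next 9.14), Fcf1 (5.85, next 6.34) and Mtch1 (7.57, next 8.19). Si-IR replicate 5 was the lowest for Srgn (8.12, next 8.90). Among Ti-IR hearts replicate 2 was the lowest for Mtch1 (7.47), replicate 5 the lowest for Npas2 (4.55), and replicate 3 the highest for Smco1 (7.41) and Tmem144 (8.35).

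The Si-minus-Ti difference departed from that of the sham pair in 17 genes by the test of the difference itself. It was higher in the irradiated pair for Arntl (2.04), Adamts4 (1.29), Trp53i11 (1.10), Gpr65 (1.02), Chrna5 (0.93), Pxt1 (0.91), Adam19 (0.76), Banp (0.69) and Mettl16 (0.58). It was lower for Ciart (-2.38), Per3 (-1.45), Gstt2 (-1.26), Mid1ip1 (-0.90), Flt3l (-0.74), Nmral1 (-0.72), Cry2 (-0.68) and Dock9 (-0.65). Chrna5 was below background in all 10 irradiated arrays and Adamts4 above it in 1, so that their values are no measure of a fold. Hdac4 (0.72) departed from the mean of the other 3 dose pairs. No source used here gives the hour of death, and its part in the clock genes was not tested.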

How the results depend on the processing

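The count of 67 genes between Si-IR 16 cGy and Ti-IR 13 cGy was 0 at a threshold of 0.05, in the fit of the 10 arrays with either normalization and on the values as deposited. It was 20 with the 48 Si and Ti arrays, 16 without a batch term, 25 with batch as a random block and 2 with aligned medians. It was 171 with batch removed before the fit, 724 in batch 1 alone, 223 without the 2 arrays of other groups that lie with the other batch, 176 with trend and robust moderation and 185 with the filter on dim genes. Batch 2 alone gave 47, and 4 of these were among the 67. Leaving out 1 heart gave 0 to 619. Chosen after seeing the data, leaving out both replicate 1 hearts, these and Si-IR replicate 4, or Si-IR replicates 1 and 2 gave 0 each. The cause of these changes was not tested. The median difference over all genes moved from -0.002 to 0.03 on the values as deposited. The 32 named genes that were called kept their sign in all of these fits.

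Same-numbered hearts did not deviate together (correlations of -0.13 to 0.13, and Si-IR hearts best with their own number in 1 of 5). With a replicate block the count was 67, of which 62 were among the 67 above, and the test against the sham pair gave 31.

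The count of 17 against the sham pair was 3 at a threshold of 0.05, 8 with the 48 arrays, 10 without a batch term, 0 on the values as deposited, 1 in batch 2 alone, and 9 to 58 with 1 heart left out. The count of 1 against the other dose pairs was 0 with the 48 arrays, on the values as deposited and without both replicate 1 hearts, 2 in batch 2 alone, and 0 to 2 with 1 heart left out.

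Among the named called genes and the study's list, signs turned only in genes of that list, which were not called. Medians of some gene lists turned as well, such as fat synthesis (0.53, and -0.06 without Si-IR replicates 1 and 2). Spon2 (0.01) was -0.013 in batch 1 alone, -0.049, -0.058 and -0.062 without Si-IR replicate 2, 3 or 4, and -0.005, -0.02 and -0.11 without Ti-IR replicate 2, 3 or 5. Adam19 (0.04) was -0.086 in batch 2 alone and -0.013 without Ti-IR replicate 5. Slc41a3 (-0.12) was 0.11 in batch 2 alone, 0.054 without both replicate 1 hearts and 0.027 without Si-IR replicates 1 and 2. Errfi1 (0.32) was -0.177 in batch 2 alone, Wee1 (0.07) was -0.042 without Si-IR replicates 1 and 2, and Per2 (-0.05) was 0.033 without both replicate 1 hearts and Si-IR replicate 4. Array signal limits 11 of the 67 calls, which lay at background in a whole group.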
